A study of Mus musculus with 6 samples.

Results

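The dystrophin-glycoprotein complex was examined in skeletal muscle RNA of FLExDUX4 mice and their wild-type (WT) littermates through 8 genes that encode its parts: Dmd, Utrn, Dag1, Sgca, Sgcb, Sgcd, Sspn and Dtna. The genes were chosen by name, as the rows of the deposited gene table with a mouse Ensembl identifier and one of these symbols. Each symbol matched 1 row, which gave 8 of the 52550 mouse genes in the table, and all 8 passed the filter on low counts that left 13396 genes for comparison. FLExDUX4 mice are hemizygous for a human DUX4 transgene that sits inverted between lox sites at the Rosa26 locus. No Cre recombinase or inducing drug was used, and the transgene is described as leaky at a very low level. WT littermates lack the transgene. The labels give 3 male mice of each genotype, 13 weeks of age, and quadriceps muscle, whereas the methods of the study describe triceps of 2-month-old males.

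The complex links the actin cytoskeleton of the muscle fiber to the laminin of the basement membrane across the sarcolemma. Dystrophin, the Dmd product, is the long cytoplasmic rod that binds actin at one end and beta-dystroglycan at the other. Dag1 encodes the precursor that is cut into alpha-dystroglycan, which binds laminin outside the fiber through its sugar chains, and beta-dystroglycan, which spans the membrane. The sarcoglycans and sarcospan stabilise this unit in the membrane, and alpha-dystrobrevin, the Dtna product, binds dystrophin inside it. Loss of dystrophin causes Duchenne muscular dystrophy, and loss of single sarcoglycans causes limb-girdle muscular dystrophies. Utrophin is the close relative of dystrophin that adult fibers keep mainly at the neuromuscular and myotendinous junctions and that spreads along the membrane of dystrophic and regenerating fibers.

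RNA was sequenced with QuantSeq, which reads the 3′ end of each polyadenylated transcript. For each gene the values used were raw counts, added up by the authors over the mice of a genotype. They came to 13110125 counts on mouse genes for FLExDUX4 mice and 18367364 for WT mice, of which the 8 genes took 0.0861% and 0.0922%. Values of single libraries were not used, because the names of their columns match no sample label. Differences are therefore given here without a replicate check, and 1 mouse could set them. Intervals are 95% intervals for counting error only, and no p-value is given. No feature named DUX4 was in the table, so the transgene could not be checked. Muscle fiber markers were abundant in both totals, with 466362 and 644116 counts of Acta1 (skeletal alpha-actin) and 158243 and 218032 of Ckm (muscle creatine kinase) in FLExDUX4 and WT. Markers of hindlimb position were at or near 0, with 0 and 1 counts of Pitx1, 10 and 10 of Tbx4 and none of Hoxc10 or Hoxc11, and the forelimb gene Tbx5 had 14 and 34. These counts are too few to settle which muscle was taken.

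Because reads come from the 3′ end, transcripts of a gene that share an end are counted together. Not every annotated protein-coding transcript ended within 5000 bases of the end of its gene. Those that did were 4 of 8 for Utrn, 4 of 6 for Dag1 and 4 of 5 for Sgca. For Dtna they were 3 of 6 and for Sgcd 1 of 2. Counts of these genes can therefore mix transcripts with different ends. Dmd lies on chromosome X of GRCm38 (82948870 to 85206141, plus strand, protein-coding). Its 3 annotated protein-coding transcripts all end within 5000 bases of the end of the gene but begin at 2 places that are 2099.51 kb apart in GENCODE. RefSeq lists starts 2099425 bases apart, so its second start is not the same base. One start is that of full-length muscle dystrophin and the other, near the 3′ end of the gene, is that of the short product Dp71, which lacks the actin-binding end. The Dmd count is therefore the sum of both. The 250 bases before each RefSeq start are shown because this count cannot separate them. They are from GRCm38.p6, plus strand, chrX:82948620-82948869 for the first and chrX:85048045-85048294 for the second, and capitals mark motif matches.
Dmd, first start: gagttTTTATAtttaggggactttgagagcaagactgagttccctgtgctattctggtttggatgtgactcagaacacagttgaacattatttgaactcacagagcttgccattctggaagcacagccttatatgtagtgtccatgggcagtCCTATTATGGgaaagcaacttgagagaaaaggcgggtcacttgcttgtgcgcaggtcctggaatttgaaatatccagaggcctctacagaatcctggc
Dmd, second start: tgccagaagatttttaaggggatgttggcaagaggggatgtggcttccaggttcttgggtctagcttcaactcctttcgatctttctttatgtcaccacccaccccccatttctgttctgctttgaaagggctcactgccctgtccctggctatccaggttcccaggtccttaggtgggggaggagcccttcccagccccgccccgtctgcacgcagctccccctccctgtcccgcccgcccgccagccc
The first stretch had 45.2% G and C and the second 60.0%, beside a median of 52.4% over the 250 bases before 32851 annotated starts. The first held 1 CArG box, the site named for serum response factor, and 1 match to TATAAA on the opposite strand. A CArG box was found before 1.47% of these starts and TATAAA before 12.4%. Promoter sequence was examined for 7 of the 8 genes (10 starts). Dtna was left out of the promoter comparison, so its promoter was not searched. None of the 10 held the DUX4 consensus site, found before 0.125% of the 32851 starts, or the E-box CAGCTG, found before 13.0%. Both strands were searched, and motifs did not overlap in the sequences shown. A match of letters is a description and not evidence of binding.

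Transcripts of the complex were present at very unequal levels, and the order was the same in both genotypes (plot of levels by genotype). Levels are given in counts per 1000000 (CPM) of the scaled totals, without division by length, since a 3′ read count does not grow with transcript length. Dag1 was highest, at 256.2 CPM in FLExDUX4 mice (interval 247.6 to 265) and 271.9 in WT mice (264.4 to 279.5), followed by Dmd at 215 CPM (207.1 to 223.2) and 218.2 (211.6 to 225.1). Sspn, the sarcospan gene, stood at 122.7 and 126.9 CPM, and Dtna at 93.0 and 97.2 CPM. The sarcoglycan genes Sgca and Sgcb lay next to each other. In FLExDUX4 mice Sgca was at 67.8 CPM (63.4 to 72.5) and Sgcb at 65.4 (61.1 to 70.0), with overlapping counting intervals, while in WT mice they were at 75.1 (71.2 to 79.2) and 67.2 (63.6 to 71.1). All other neighbours in the order differed beyond their counting intervals in both genotypes. Utrn followed at 43.1 and 48.7 CPM. Sgcd, which encodes delta-sarcoglycan, was far below the rest at 6.40 CPM (5.10 to 7.93) in FLExDUX4 mice and 7.11 (5.95 to 8.43) in WT mice. In WT mice, Dag1 ranked 273 and Dmd 356 by count among the 13396 genes, and Sgcd ranked 7003.

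**Figure D1:**
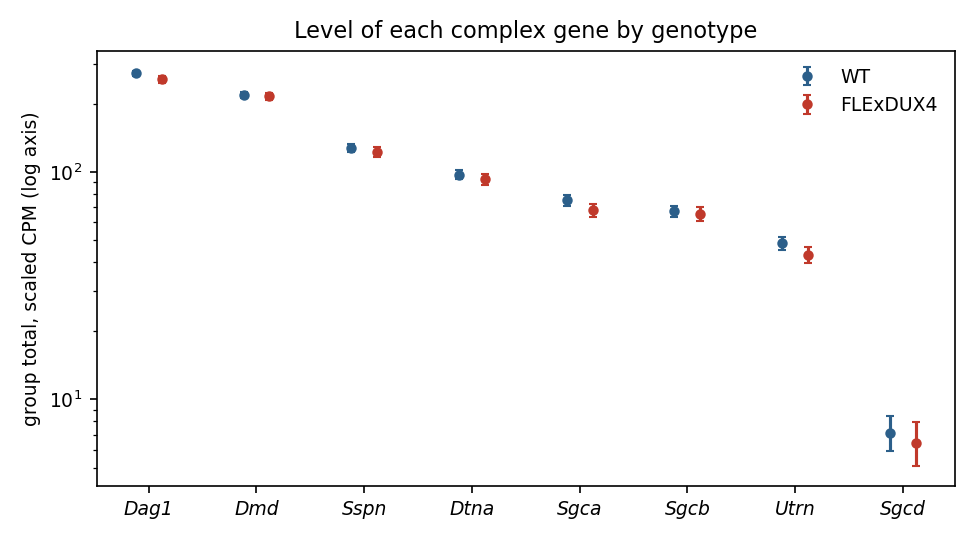
Scaled CPM (log axis) of each of the 8 genes in the FLExDUX4 total (red) and the WT total (blue), ordered by the WT level. Points are group totals and bars are 95% Poisson intervals for counting error. The pairs lie close together for every gene, from Dag1 at 256.2 and 271.9 CPM to Sgcd at 6.40 and 7.11 CPM.

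The comparison of FLExDUX4 with WT mice asked whether low DUX4 expression comes with altered transcription of the complex before muscle pathology is seen. No gene of the complex differed by as much as 1.5-fold (plot of differences), and the log2 ratios of the totals scaled with edgeR's TMM method ran from -0.18 to -0.02. Of all 13396 genes, 26.8% were past 1.5-fold, a share in which genes of few counts weigh heavily. Of the 7139 genes with 200 to 10000 counts in both totals together, the range that holds all 8 genes, 7.16% were past it. The median log2 ratio of the 8 genes was -0.07, beside -0.001 for all genes. The ratios of all 8 genes were below 0, as were those of 50.1% of all genes and 49.7% of the 7139 genes in that count range. All 8 stayed below 0 under each scaling run, but the genes share the same mice and the same scaling, so the 8 signs are not independent.

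The cytoskeletal arm was closest to equal for dystrophin. Dmd had 2790 counts in FLExDUX4 mice and 4050 in WT mice, a log2 ratio of -0.02 (interval -0.09 to 0.05), so that counting error alone allowed a FLExDUX4 level from 93.9% to 103.4% of WT. Utrn (chromosome 10, 12382188 to 12869365, minus strand) had 559 and 904 counts and the lowest ratio of the 8 genes, -0.18 (-0.33 to -0.02), or 88.5% of the WT level. Utrophin was thus not higher in FLExDUX4 muscle by these totals. Its transcripts are found at the junction between nerve and fiber and in vessels too, and in whole muscle fewer cells of a type and less RNA per cell cannot be told apart. The summed counts of 9 neuromuscular junction markers were 990 and 1324, a log2 ratio of 0.10 (-0.02 to 0.22), with 4 of the 9 higher and 5 lower and a median of -0.15, opposite in sign to the sum. Chrna1, an acetylcholine receptor subunit with 119 and 237 counts, was at -0.47 (-0.81 to -0.15), and Musk, the muscle-specific kinase of the junction, was at 1.22 (0.78 to 1.68) from 111 and 68 counts. The summed counts of 8 endothelial markers were 2768 and 4312, a ratio of -0.12 (-0.19 to -0.05), with 3 higher and 5 lower. Kdr (-0.56) and Tek (-0.63) were the lowest of them, Vwf (0.71) the highest, and Pecam1 (0.06) and Cdh5 (-0.03) were near 0. The part of these cells in the Utrn value was not tested. Dtna (chromosome 18, 23415135 to 23659715, plus strand) had 1207 and 1803 counts and a ratio of -0.06 (-0.17 to 0.04).

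Dag1 (chromosome 9, 108204634 to 108263958, minus strand) had 3324 and 5046 counts, the most of the complex. Its log2 ratio of -0.09 (-0.15 to -0.02) excluded 0 for counting error, and the FLExDUX4 level was 94.2% of WT. An interval wholly below 0 was found for 3 of the 8 genes, Utrn, Dag1 and Sgca, none of them past 1.5-fold. The same held for 20.6% of all genes and for 21.1% of the 7139 genes with 200 to 10000 counts, and it speaks only of the reads of these totals. With spike-in scaling, which lowers every log2 ratio by the same amount, 8 of the 8 intervals lay below 0, and with 99% intervals 1 did. The shares of all genes were not counted under these settings, so neither count is read as a result about the 8 genes.

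Among the membrane partners, Sgca (chromosome 11, 94962791 to 94976327, minus strand), which encodes alpha-sarcoglycan, had 880 and 1394 counts and a log2 ratio of -0.15 (-0.27 to -0.02). Sgcb (chromosome 5, 73632749 to 73647790, minus strand), which encodes beta-sarcoglycan, had 849 and 1248 counts and a ratio of -0.04 (-0.17 to 0.09). Sgcd (chromosome 11, 46896253 to 47988969, minus strand) had only 83 and 132 counts. Its ratio of -0.15 had an interval from -0.57 to 0.25, so a level from 67.5% to 119.3% of WT was within counting error and a smaller difference was not detectable at this depth. Sspn (chromosome 6, 145931641 to 145965223, plus strand), encoding a protein with several passes through the membrane that binds the sarcoglycans, had 1592 and 2356 counts and a ratio of -0.05 (-0.14 to 0.04). The 3 sarcoglycan genes together had 1812 and 2774 counts, a ratio of -0.10 (-0.18 to -0.01). Annotated genes that overlap 7 of the 8 genes took few counts. The highest were 71 and 109 for a pseudogene inside Dmd, and the antisense genes within Sspn and Dtna had at most 3 in either total.

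**Figure D2:**
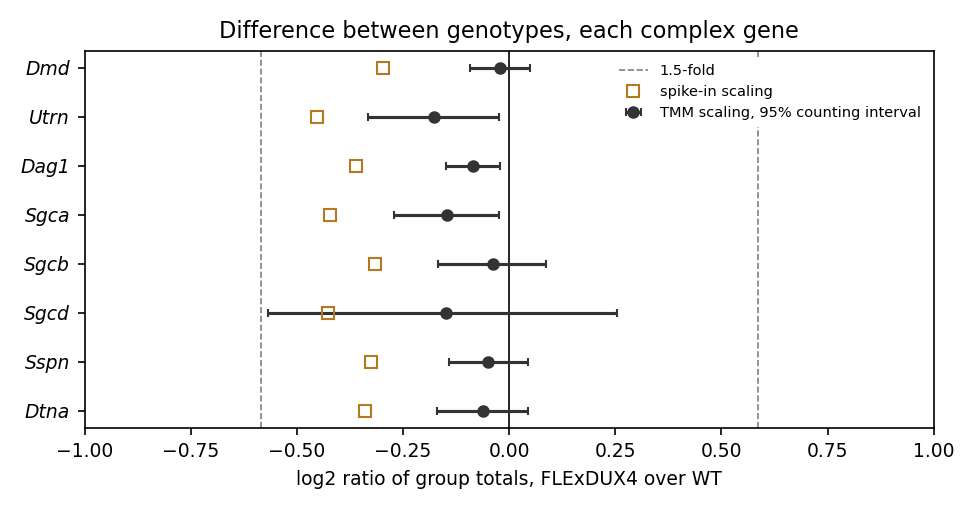
Log2 ratio of FLExDUX4 to WT group totals for the 8 genes, with TMM scaling and its 95% counting interval (black points and bars) and with scaling to the spike-in RNAs (open squares), beside 1.5-fold in either direction (dashed lines). The black points lie between -0.18 and -0.02. The squares lie between -0.45 and -0.30, and no point or square passes a dashed line.

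The scaling of the totals set the size of these ratios. The libraries held added spike-in RNAs with 220016 counts in FLExDUX4 mice and 259913 in WT mice, and when the totals were scaled to them the median log2 ratio of all genes was -0.28. The 8 genes then ran from -0.45 for Utrn to -0.30 for Dmd, which relative to that median is close to their position under TMM. Muscle fiber markers are the transcripts nearest to the complex in cell of origin. With TMM scaling 10 of 12 were lower in FLExDUX4 mice, from -0.19 to 0.05, and their median was -0.05. The fast myosin Myh4 was at -0.07, Myh1 at -0.19, Myh2 at -0.04 and the slow form Myh7 at -0.04. Acta1 and Ckm were the 2 higher genes, both at 0.05, and Ttn (-0.07), Neb (-0.05), Tnnt3 (-0.02), Tnnt1 (-0.11) and Mb (-0.001) were lower. Desmin (Des), the intermediate filament at the costamere, had 10292 and 16798 counts and a ratio of -0.19 (-0.23 to -0.15), about that of Utrn.

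The make-up of the complex does not depend on the scaling, and it was nearly the same in both genotypes (plot of shares). Of the counts of the 8 genes, 11284 in FLExDUX4 mice and 16933 in WT mice, Dag1 took 29.5% and 29.8% and Dmd 24.7% and 23.9%. The share of Dmd was 0.81 percentage points higher in FLExDUX4 mice (interval -0.21 to 1.83). Utrn took 4.95% and 5.34%, a difference of -0.38 points (-0.90 to 0.15), and Sgca 7.80% and 8.23%, a difference of -0.43 points (-1.07 to 0.22). The intervals of all 8 differences (Newcombe, 95%) held 0, and the largest difference in size was that of Dmd. When the other subunits and direct partners were added to the denominator, the Dmd difference was -0.01 points, that of Dag1 was largest at -0.94, and 4 of the 8 differences changed sign, so no direction is read from the shares. There were 0.200 Utrn counts per Dmd count in FLExDUX4 mice (0.183 to 0.219) and 0.223 in WT mice (0.207 to 0.240). The ratio of these was 0.898, with an exact conditional interval from 0.798 to 1.01. Per Sgcb count there were 1.04 and 1.12 counts of Sgca, a ratio of 0.928 (0.820 to 1.05), and 0.0978 and 0.106 counts of Sgcd, a ratio of 0.924 (0.684 to 1.24). There were 1.88 and 1.89 counts of Sspn, a ratio of 0.993 (0.890 to 1.11).

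**Figure D3:**
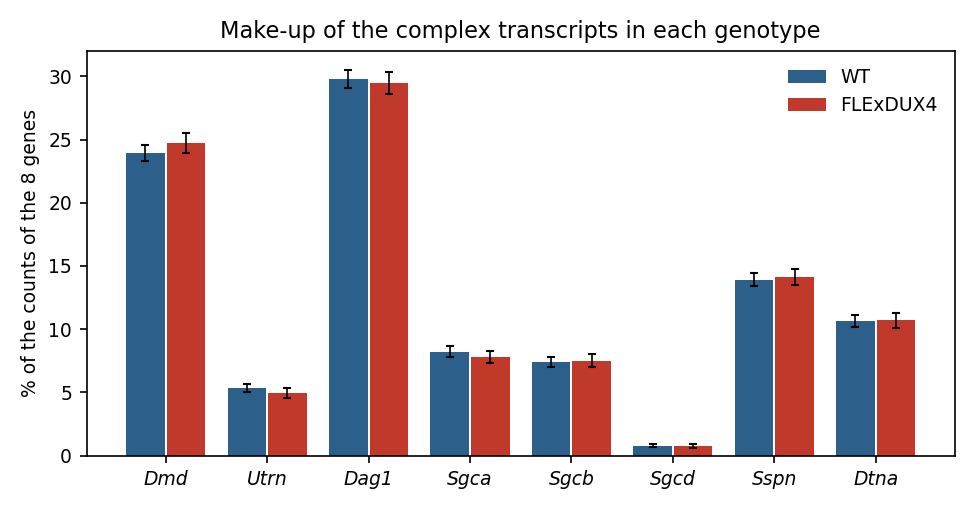
Share of each gene in the summed counts of the 8 genes, in percent, for the WT total (blue) and the FLExDUX4 total (red), with 95% Clopper-Pearson intervals as bars. Dag1 and Dmd together hold more than 50% in both, and the intervals overlap between genotypes for every gene.

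Other subunits and direct partners of the complex were less uniform. Of 12 listed, 8 had enough counts, 5 higher and 3 lower (median log2 ratio 0.11), and 2 of these passed 1.5-fold. Nos1, the neuronal nitric oxide synthase anchored to the complex, had 1034 and 1314 counts and a ratio of 0.17 (0.05 to 0.29). Counted against Dmd, and so free of the scaling, Nos1 was 1.14 times its WT proportion (1.04 to 1.26), for counting error only. With spike-in scaling the ratio of Nos1 was below 0, as every log2 ratio is then lower by the same amount, and the medians were below 0 too for all the lists of other genes described here. Caveolin-3 (Cav3) had a ratio of -0.07 (-0.23 to 0.08).

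Sgce, which encodes epsilon-sarcoglycan, the form that predominates outside striated muscle, was the gene of this list farthest from equality with at least 200 counts. It had 77 counts in FLExDUX4 mice and 213 in WT mice, a log2 ratio of -0.95 (-1.35 to -0.57). Per Sgca count, Sgce was at 0.0875 in FLExDUX4 mice and 0.153 in WT mice, a ratio of 0.573 (0.430 to 0.758). Of the 8 markers of smooth muscle and pericytes, cells that express it, 7 had ratios above 0 (median 0.13), among them Acta2 (0.38) and Rgs5 (0.06). Their summed counts, 15068 and 23071, were mostly Des (10292 and 16798), which is also among the muscle fiber markers. The sum had a ratio of -0.10 (-0.13 to -0.07), opposite in sign to the median. Of the 8 Schwann cell markers 5 were higher, also with a median of 0.13, and the most abundant, Pmp22, was at 0.14. The part of these cells in the Sgce value was not tested. Dtnb (beta-dystrobrevin), with 26 and 17 counts, had a ratio of 1.12 (0.19 to 2.10). Sgcz, Sntb1, Sntg1 and Sntg2 had at most 5 counts in either total.

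The enzymes that build the laminin-binding sugar on dystroglycan had a median log2 ratio of 0.03. Of 18 listed, 17 were compared, 9 higher and 8 lower, and 3 were past 1.5-fold. Dpm3, a subunit of the enzyme that makes dolichol-phosphate mannose, had 517 and 685 counts and a ratio of 0.11 (-0.06 to 0.28). Dpm1, the catalytic subunit of the same enzyme, had 186 and 164 counts and a ratio of 0.70 (0.39 to 1.01). Scaled to the spike-ins, Dpm1 was no longer past 1.5-fold. Pomt2 and Ispd were past 1.5-fold on the lower side with few counts, 23 and 61 for Pomt2 and 14 and 47 for Ispd.

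Of 12 dystroglycan ligands and laminin chains, 11 were compared, with a median log2 ratio of 0.02 and 2 past 1.5-fold. Lama2, the laminin chain of adult muscle basement membrane, had 298 and 265 counts and a ratio of 0.69 (0.44 to 0.93). With spike-in scaling it was no longer past 1.5-fold. The chains it pairs with were near equality, with 0.08 (-0.14 to 0.30) for Lamb1 from 300 and 406 counts, -0.03 (-0.15 to 0.08) for Lamb2 and -0.01 (-0.16 to 0.13) for Lamc1, and perlecan (Hspg2) had -0.12 (-0.25 to 0.01). Fibroblast markers, cells that also make matrix, were 6 of 8 higher, with summed counts of 18048 and 23435 and a ratio of 0.14 (0.11 to 0.17). Col1a1 (0.53), Lum (0.48) and Ly6a (0.44) were farthest above 0, Dcn (0.04), Col3a1 (0.01), Pdgfra (0.05) and Dpt (-0.01) were near it, and Cd34, with 353 and 624 counts, was lowest at -0.30 (-0.50 to -0.11). Their part in the Lama2 value was not tested.

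None of 13 costamere and cytoskeletal linkers compared, of 17 listed, was past 1.5-fold, with ratios from -0.19 to 0.27. Synemin (Synm), which ties desmin to the complex, had 9762 and 15136 counts and a ratio of -0.12 (-0.15 to -0.08). Plectin (Plec), the cytoskeletal crosslinker that binds beta-dystroglycan, was at -0.001 (-0.05 to 0.05), ankyrin-G (Ank3) at -0.03 (-0.10 to 0.03) and Ank2 at -0.17 (-0.35 to -0.004). Filamin C (Flnc), a partner of the sarcoglycans, was at 0.17 (0.10 to 0.24), vinculin (Vcl) at 0.17 (0.02 to 0.32) and beta-spectrin (Sptb) at -0.13 (-0.23 to -0.03). Actb (-0.02), Tln1 (-0.01), Tln2 (0.07) and Sptbn1 (0.11) completed the abundant genes. Actg1, the cytoskeletal actin that dystrophin binds, had 5 and 2 counts, too few to be compared. Near-identical copies of this gene exist in the genome, and how reads shared with them were counted was not examined.

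The integrin alpha-7 beta-1 receptor is the other laminin receptor of the fiber. With TMM scaling none of 8 listed genes was past 1.5-fold, and their median log2 ratio was 0.16. The list holds the 2 receptor chains, the alpha chains Itga3 and Itga6 of other laminin receptors and the cytoplasmic partners Ilk, Parva, Lims1 and Lims2. Itga7 had 522 and 757 counts and a ratio of -0.02 (-0.18 to 0.14), Itgb1 of 0.20 (0.11 to 0.30) and Lims1 of 0.13 (-0.05 to 0.30). Lims2 was highest at 0.49 (0.26 to 0.72), followed by Ilk at 0.31 (0.08 to 0.54), and Itga6 was lowest at -0.39 (-0.57 to -0.20).

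Genes of membrane repair had a median log2 ratio of 0.04 over 13 genes. Dysferlin (Dysf), the calcium sensor of membrane resealing, was at 0.10 (-0.10 to 0.29), Ano5 at 0.004 (-0.09 to 0.10) and calpain-3 (Capn3) at -0.09 (-0.21 to 0.02). The 2 genes past 1.5-fold were Anxa1, with 203 and 156 counts and a ratio of 0.90 (0.59 to 1.21), and Myof, with 179 and 138 counts and a ratio of 0.89 (0.56 to 1.22). Anxa2 was at 0.40 (0.26 to 0.54), while Anxa5, with 351 and 644 counts, was at -0.36 (-0.55 to -0.17) and Trim72, which patches torn membrane, at -0.50 (-1.42 to 0.33) from 18 and 37 counts. Anxa6 (-0.03), Ahnak (0.10), Cav1 (0.09), Cavin1 (-0.19) and Cavin4 (0.04) were within 0.2 of 0. Macrophage markers, whose cells also express annexins, split evenly, with 4 of 8 higher and a median of -0.004. Cd163, with 165 and 125 counts, was at 0.92 and Lyz2 at -0.02, and the part of these cells was not tested.

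Genes that regenerating fibers express differed in direction. Embryonic myosin (Myh3) had 36 and 56 counts and a ratio of -0.11 (-0.77 to 0.51), and Myh8, the perinatal form, 77 and 91 counts and a ratio of 0.28 (-0.18 to 0.73). Myog, which drives myoblast differentiation, had 50 and 32 counts (ratio 1.15, interval 0.49 to 1.85), whereas Pax7, which marks satellite cells, had 35 and 89 (ratio -0.82, interval -1.44 to -0.25). Mymk, which drives myoblast fusion, had 8 and 1 counts, too few to be compared. Cardiac actin (Actc1), at 89.4 and 113.4 CPM the most abundant of the list, had 1160 and 2104 counts and a ratio of -0.34 (-0.45 to -0.24). Of the 7 genes compared of 10 listed, 3 were higher and 4 lower.

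**Figure D4:**
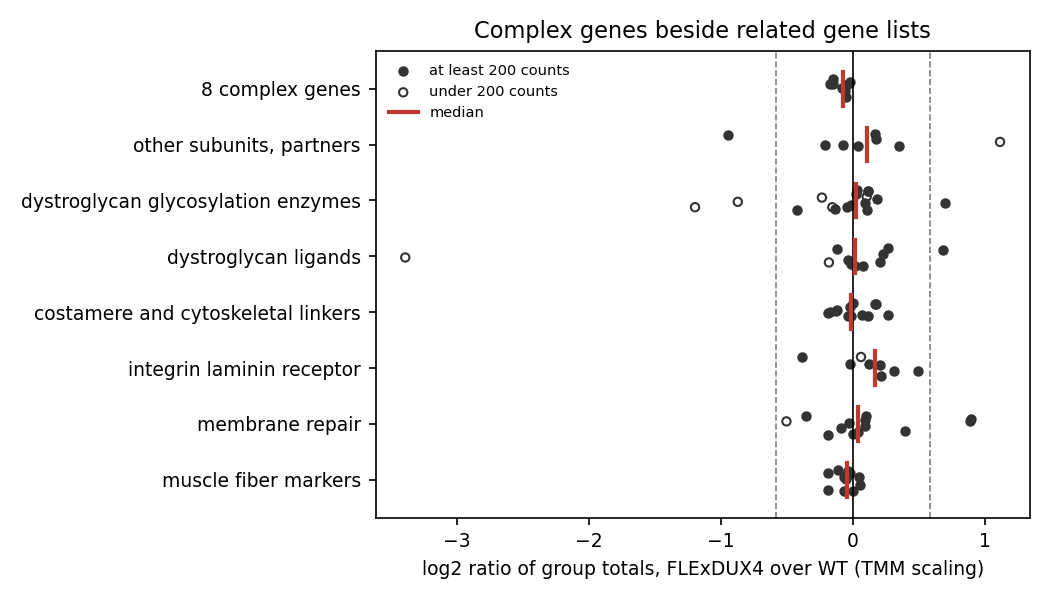
Log2 ratio of FLExDUX4 to WT group totals (TMM scaling) for the 8 complex genes, 6 lists of related genes and the muscle fiber markers. Each point is a gene, filled at 200 or more counts in both totals together and open below that, red bars are medians and dashed lines mark 1.5-fold. The 8 complex genes sit between -0.18 and -0.02, and the points past 1.5-fold belong to other lists.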

How the data were processed

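Muscle RNA of 3 FLExDUX4 and 3 WT mice was sequenced with QuantSeq FWD. The authors trimmed reads with Cutadapt 1.16 and aligned them with STAR 2.5.3a to GRCm38 joined to ERCC and SIRV spike-in sequences. The submitters' processing notes also name featureCounts 1.6.2 and DESeq2; the strand setting was not given in the sources used here. The deposited count values used here are raw counts per gene summed by the authors over a genotype. The deposited table also holds 6 columns of values per library, whose names match no sample label, and 6 columns of the authors' own comparison (mean, fold change, error, statistic and p-values), and none of these was used.

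Group totals were scaled by TMM (edgeR 4.0.16, R 4.3.3) over genes kept by filterByExpr. Log2 ratios used a pseudocount of 0.5. Clopper-Pearson, Poisson, Newcombe and exact conditional intervals (Python 3.11.15, scipy 1.17.1, statsmodels 0.14.6) cover counting error only, and PCR copies are not independent molecules. No test across replicates was run. Coordinates are from GENCODE M21 (GRCm38), whose start equals the deposited position for all 8 genes. Named genes are the 8 genes and, in the other lists, those with at least 1000 counts or past 1.5-fold with at least 100. Some genes that meet this rule are not reported here. A few genes below these limits were named after their values were seen. The genes and lists were chosen with earlier results of these data known.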

Additional observations from a re-analysis of the deposited data

How the results depend on the processing

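No paired analysis was possible because the columns of single libraries carry names that match no sample label, and columns were not assigned from their values. For the same reason, leaving out each replicate, edgeR's quasi-likelihood test and DESeq2 were not run. Under RLE, upper quartile and gene-total scaling, with the filter removed or set to a minimum of 10 counts in both totals, and with pseudocounts of 1 and 5, all 8 ratios stayed below 0 and within their main counting intervals. Scaled to the spike-ins, the log2 ratio was -0.30 for Dmd, -0.45 for Utrn, -0.36 for Dag1, -0.42 for Sgca, -0.32 for Sgcb, -0.32 for Sspn and -0.34 for Dtna, the median of the 8 was -0.35, and 8 intervals in place of 3 lay below 0. The median log2 ratio of all genes was then -0.28, and the share of all genes with intervals below 0 was not counted. What moved the spike-ins was not tested. With 99% intervals, 1 excluded 0, and the share of all genes was not counted at that level either. No gene of the 8 was past 1.5-fold under any scaling, filter or pseudocount, or past a limit 25% above equality in either direction under TMM. With the spike-in scaling and the 25% limit together, an alternative chosen after seeing the data, 6 of the 8 passed, all lower. Every log2 ratio is lower by the same amount at that scaling, and the share of all genes past this limit was not counted there. The number of all genes past 1.5-fold, 3584, was 9080 without a filter and 2352 with the minimum of 10 counts, 6093 at the 25% limit and 1797 at 2-fold. For the 6 pathway lists, an alternative set chosen after seeing the data, 9 genes became 15 without a filter, 16 at the 25% limit and 3 at 2-fold. Scaled to the spike-ins they became 11, and Itga6 was then past 1.5-fold. Shares within the complex and the Utrn to Dmd ratio stayed within their intervals with a pseudocount of 5, as did the shares with a wider denominator, although 4 of the 8 share differences changed sign with it (Dmd to -0.01, Sgcb to -0.07, Sspn to -0.19 and Dtna to -0.22 points).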
